A study of Mus musculus with 16 samples.

Results

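The nuclear-encoded genes of the mitochondrial respiratory chain were described by the accessibility of their promoters. They were the protein-coding genes of GENCODE vM21 on nuclear chromosomes of GRCm38 whose names begin with Ndufa, Ndufb, Ndufc, Ndufs, Ndufv, Uqcr, Atp5 or Cox4 to Cox8, together with Sdha, Sdhb, Sdhc and Sdhd. This gave 94 genes of the 21938 protein-coding genes. By name, 38 fell in complex I and 8 were complex I assembly factors (Ndufaf1 to Ndufaf8). Complex II had 4 genes, complex III 8, complex IV 18 and ATP synthase 18. Ndufa4 was counted with complex I by its name, although its protein is now placed in complex IV.

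The respiratory chain passes electrons from NADH (at complex I) and succinate (at complex II) through complex III to oxygen at complex IV, and the proton gradient this builds drives ATP synthase. Most subunits are encoded in the nucleus and made in nearly every cell, with the highest demand in heart, skeletal muscle and brown adipose tissue. Several complex IV subunits come in pairs, with 1 form found broadly and the other mainly in heart and skeletal muscle (Cox6a2, Cox7a1, Cox8b), in testis (Cox6b2, Cox7b2, Cox8c) or in lung and under low oxygen (Cox4i2). NRF1, GABP (an ETS family factor), YY1 and the estrogen-related receptors are known regulators of these promoters.

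ATAC-seq, in which the Tn5 transposase cuts open chromatin, was applied to 8 tissues of male C57BL/6 mice that were either fed (free access to chow) or fasting for 24 h. The tissues were heart, muscle, liver, kidney, lung, spleen and the brown and white adipose depots. The mice were acquired at 12 weeks of age, and tissue from 3 mice of a state was pooled into 1 library, giving 16 libraries with no replicate. Nothing measured the spread between animals, and all tissues of a state came from the same mice. The signal of a promoter was expressed as the percentile of its best peak, ranked by the MACS2 p-value among all rows of that library's deposited list. It is 100 for the strongest row and 0 where no peak summit lay within 3000 bp of an annotated start of the gene.

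Each list held between 298996 and 299529 rows, a nearly equal length, and the lists ended at unlike significance. In fed brown adipose all 299475 rows had a MACS2 q-value under 0.01, and 286906 were under 1e-06. In fed liver 258066 of 299479 rows were under 0.01, and 98328 under 1e-06. A percentile of 0 therefore means no listed peak, and a weak peak could be listed in some libraries and not in others. Depth is not stated in the files, but the genome background that the fold and p values imply, which is proportional to depth, ran from 2.80 tags in fed liver and 2.82 in fasting liver to 12.77 in fed brown adipose, whose fasting library had 6.76. Of 8 lists of 5 tissue markers, 7 had their highest mean percentile in their own tissue. The means there were 93.05 for muscle, 91.7 for brown adipose, 88.3 for liver, 85.6 for spleen, 78.4 for lung, 76.75 for heart and 65.3 for kidney. The white adipose list was higher in brown adipose (94.15) than in white adipose (90.55).

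The promoters themselves were examined first, because their sequence was not used to choose the genes. RefSeq promoter windows (GRCm38.p6, 250 bases before to 50 after a start) were matched for 76 of the 94 genes, in 81 sequences. The NRF1 motif GCGCANGCG, searched on both strands and nearly its own reverse complement so that neighbouring matches overlap, occurred in 28.4% of these windows against 8.58% of all 21262 windows of protein-coding genes. The ETS motif CCGGAAG occurred in 22.2% against 11.6%, the YY1 motif AAGATGGCG in 9.88% against 1.83%, and the estrogen-related receptor motif TNAAGGTCA in 3.70% against 1.03%. The MEF2 motif, that of a muscle factor, was found in 0 of the 81 windows and in 0.489% of all windows. At least 1 of the NRF1, ETS and YY1 motifs was present for 39 of the 76 genes and in 49.4% of their sequences, against 19.6% of all. The windows were also richer in CpG, with a median observed over expected CpG ratio of 0.829 against 0.567 for all, while the GC content was 58.3% against 56.3%. A match is a stretch of letters and does not show that a factor was bound.

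The 250 bases before the start are given for chosen examples, 5′ to 3′ on the coding strand, with motif matches in capitals. No complex III gene or assembly factor is among them. Sdha (chr13:74350241-74350490, minus strand) held 3 NRF1 matches. Ndufb4 (chr16:37654369-37654618, minus strand) held 3 NRF1 matches and an estrogen-related receptor match. Cox6a1 (chr5:115348959-115349208, minus strand), the broadly expressed partner of Cox6a2, held 3 NRF1 matches, of which a pair overlap, and an ETS match. Atp5j (chr16:84834977-84835226, minus strand), a peripheral stalk subunit of ATP synthase, held a YY1 and an ETS match, while the window of its other start (chr16:84835626-84835875) held none of the motifs. Cox8b (chr7:140900447-140900696, minus strand), the heart and muscle form, held none of the motifs. The RefSeq windows of the broadly expressed Cox5a, Cox5b, Cox7a2, Cox7a2l, Cox7b and Cox7c, not shown, held none either. Those of Cox6b1 and Cox8a held ETS matches.
Sdha: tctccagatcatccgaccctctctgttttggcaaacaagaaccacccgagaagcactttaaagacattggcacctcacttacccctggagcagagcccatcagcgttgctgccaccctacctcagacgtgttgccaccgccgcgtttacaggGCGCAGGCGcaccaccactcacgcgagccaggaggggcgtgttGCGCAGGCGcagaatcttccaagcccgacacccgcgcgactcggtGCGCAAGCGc
Ndufb4: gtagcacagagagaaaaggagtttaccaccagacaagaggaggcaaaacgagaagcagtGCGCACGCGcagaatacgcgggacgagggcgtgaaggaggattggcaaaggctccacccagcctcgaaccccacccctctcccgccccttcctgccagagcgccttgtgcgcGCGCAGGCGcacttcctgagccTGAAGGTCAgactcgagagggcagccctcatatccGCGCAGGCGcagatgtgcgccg
Cox6a1: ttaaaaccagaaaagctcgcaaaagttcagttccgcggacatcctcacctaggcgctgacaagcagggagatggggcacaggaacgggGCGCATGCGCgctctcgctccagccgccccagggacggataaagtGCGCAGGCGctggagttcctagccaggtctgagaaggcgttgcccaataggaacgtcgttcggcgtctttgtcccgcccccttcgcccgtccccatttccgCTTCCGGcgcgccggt
Atp5j: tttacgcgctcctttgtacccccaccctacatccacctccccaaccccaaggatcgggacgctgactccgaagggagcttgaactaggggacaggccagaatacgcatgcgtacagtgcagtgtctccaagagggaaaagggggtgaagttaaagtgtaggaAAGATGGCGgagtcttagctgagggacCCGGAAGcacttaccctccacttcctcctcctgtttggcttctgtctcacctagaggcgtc
Cox8b: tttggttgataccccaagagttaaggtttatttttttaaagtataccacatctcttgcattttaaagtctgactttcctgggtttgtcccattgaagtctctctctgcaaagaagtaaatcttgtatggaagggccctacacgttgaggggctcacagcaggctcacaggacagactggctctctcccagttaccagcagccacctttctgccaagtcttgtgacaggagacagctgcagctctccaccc

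The NRF1 match of Sdha nearest the start began 10 bases before it, and the ETS match of Cox6a1 began 16 bases before it. Within 100 bp of the strongest summit of each gene, the shares were 23.4% for NRF1 (7.90% of all genes), 19.1% for ETS (10.5%), 9.57% for YY1 (1.60%), 2.13% for the receptor motif (0.436%) and 0 for MEF2 (0.365%). The plot of motif shares shows the same order in both windows.

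**Figure D1:**
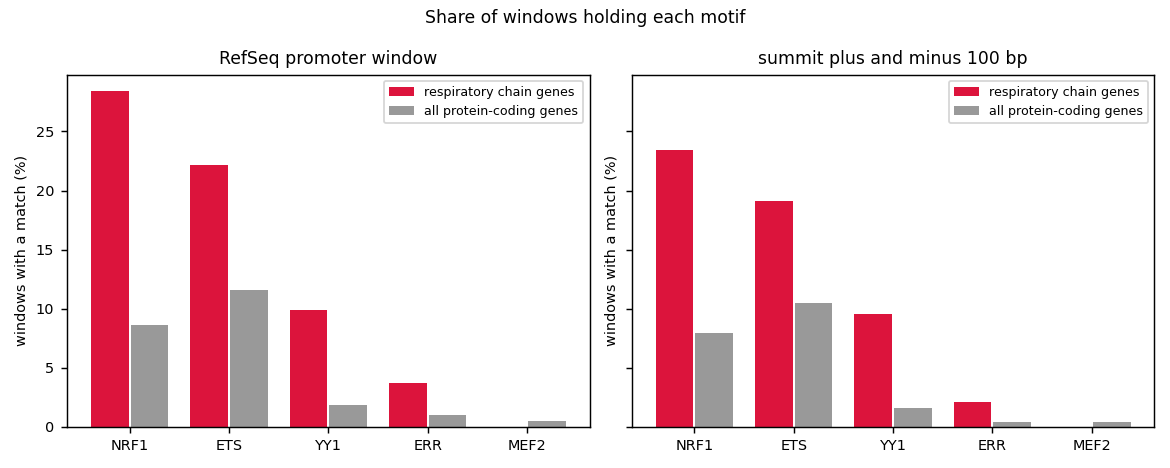
Share of windows (y axis, percent) with a match to each motif (x axis), in RefSeq promoter windows and within 100 bp of the strongest summit. Bars are respiratory chain genes (red) and all protein-coding genes (grey); NRF1 stands at 28.4% against 8.58% in promoters.

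These genes also sat in a particular arrangement. A protein-coding gene on the other strand started within 1000 bp upstream of 23 of them, 24.5% against 6.79% of all genes. Examples are Sdha and Ccdc127, whose starts lie 29 bp apart, Sdhd and Timm8b (98 bp), Ndufa7 and Rps28 (10 bp), and Ndufa8 and Morn5 (52 bp). For such a pair, 1 peak covers both starts and cannot be assigned to either gene. Of the best peaks of the respiratory chain genes, 16.8% lay nearest to a start of another gene, against 11.1% for all genes. Of the 1479 best peaks, 84.7% lay within 250 bp of a start, against 70.1% for all genes.

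Most genes of the chain had a listed peak near a start in every tissue. Within 3000 bp, a peak was listed in all 16 libraries for 90 of the 94 genes (95.7%), against 61.4% of all protein-coding genes. Within 1000 bp the count was 87, against 57.2% of all, and Ndufa4l2, Cox6a2 and Cox8b were then among the genes that lacked a peak in some libraries. The exceptions within 3000 bp were Cox8c, Cox7b2, Cox4i2 and a second gene model of Atp5o (ENSMUSG00000116933.1). The second model starts inside Atp5o itself and spans the region chr16:91684398-91926982. Cox8c, a testis form, had a peak in 1 library, fasting spleen, at percentile 26.1. Of the 90 genes with a peak throughout, 31 (34.4%) stayed at percentile 95 or above in all 16 libraries, against 26.9% of all genes with a peak throughout.

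In level, the chain resembled other constantly open genes. The median over genes of the mean percentile was 96.05, against 90.4 for the 19719 genes with a peak in any library. Among genes with a peak throughout, the medians were 96.15 for the chain and 95.65 for all. The range over the 16 libraries was narrower, with a median of 6.20 points for the 90 genes against 8.50 for all genes with a peak throughout. No test was made of these medians.

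**Figure D2:**
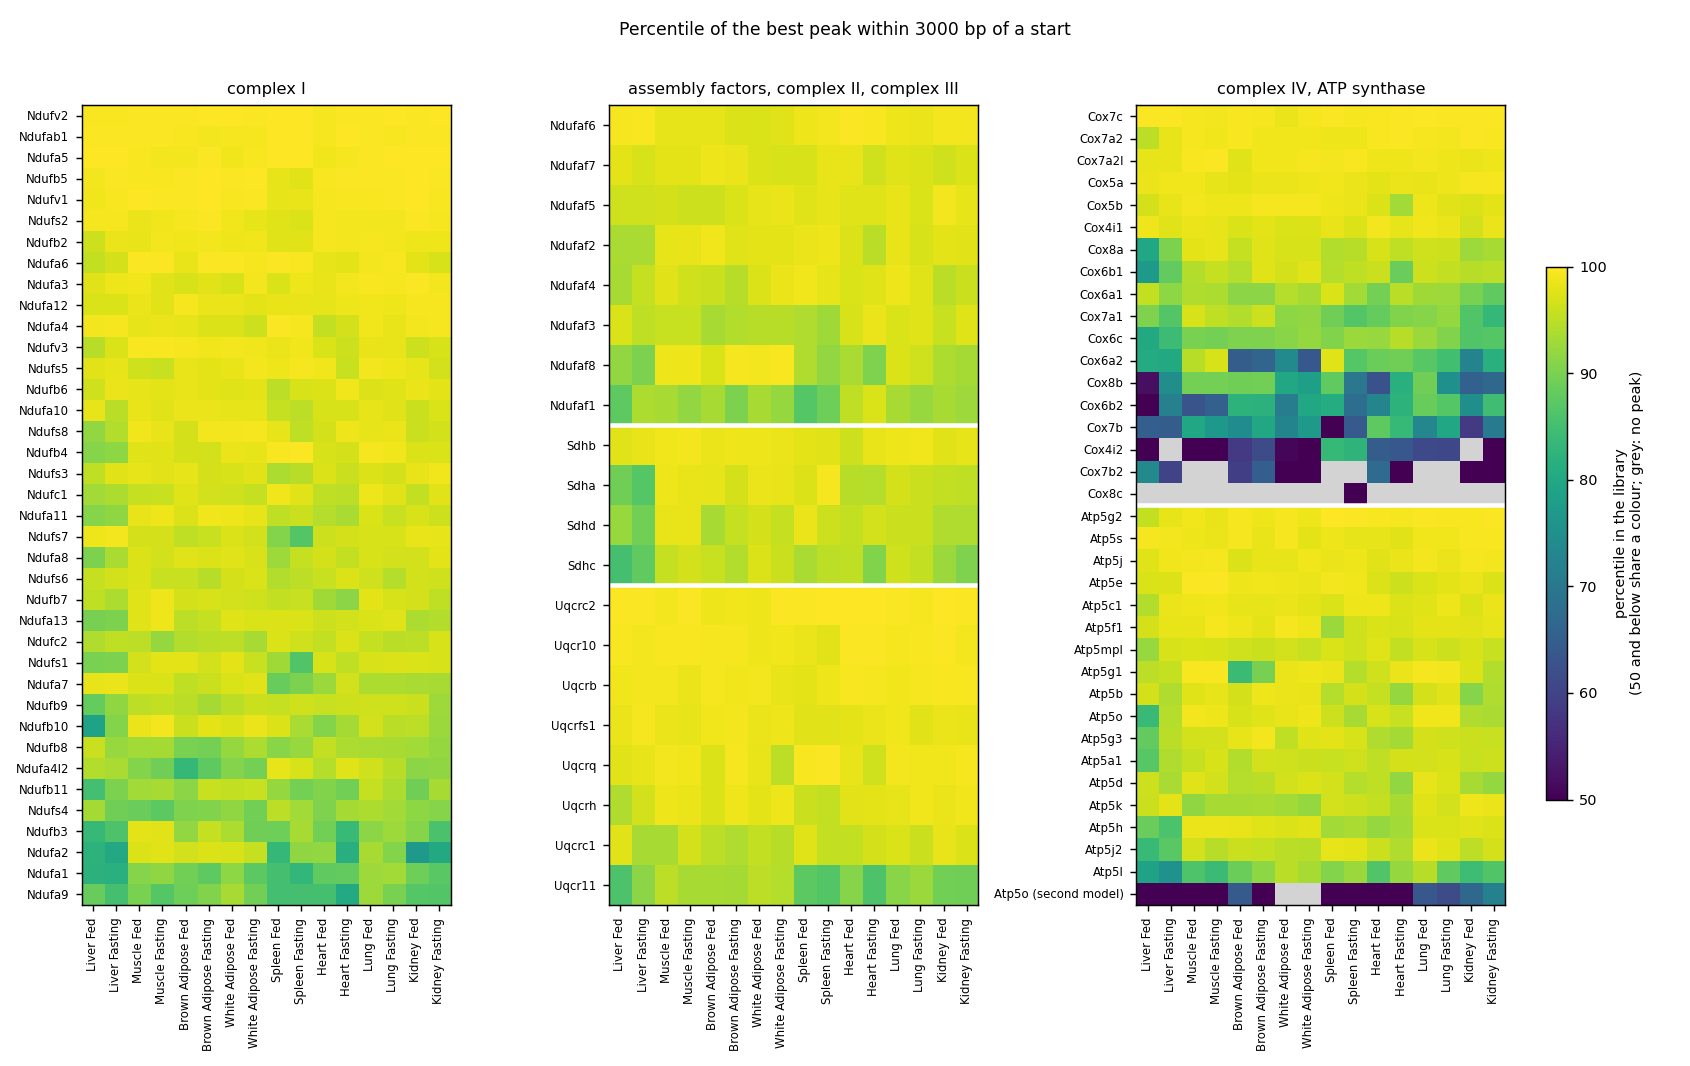
Percentile of the best peak within 3000 bp of a start (colour, 50 to 100, with lower values in the darkest colour and grey for no peak) for each gene (rows, sorted by mean within a complex) in each of the 16 libraries (columns). Most rows are bright throughout; the dark rows lie at the foot of complex IV and at the second Atp5o model.

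Complex I, which oxidises NADH, had a median of mean percentiles of 96.2. Its strongest promoter was that of Ndufv2, a subunit of the NADH-binding arm, with a mean of 99.7 and a lowest library of 99.4. Ndufab1, the mitochondrial acyl carrier protein, ran from 99.2 to 99.98. The weakest promoter was that of Ndufa9, with a mean of 87.8 and values from 80.65 to 93.5. The lowest library of Ndufv2 lay above the highest of Ndufa9. The assembly factors, which build complex I without being part of it, had a median of 97.0, from 92.2 for Ndufaf1 to 98.6 for Ndufaf6.

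Ndufa4l2, a gene induced by low oxygen, stood apart within complex I. Its best peak lay beyond 1000 bp from a start in all 16 libraries, at percentiles 83.4 to 98.2. Within 1000 bp a peak was listed in 1 library, fed heart, at 27.3. Its relative Ndufa4 ran from 95.4 to 99.8, with a peak within 1000 bp in all libraries.

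Complex II links the chain to the citric acid cycle. Sdhb, its iron-sulphur subunit, was the most even, from 96.2 in fed heart to 99.1 in fasting muscle. Sdha, the flavoprotein that oxidises succinate, was at 89.2 in fed and 86.8 in fasting liver, and between 94.4 and 99.3 in the other 14 libraries. Sdhc and Sdhd, the membrane anchors, had their lowest values in liver too, at 85.2 and 87.7 for Sdhc and 92.2 and 89.3 for Sdhd. The other 14 libraries lay above these liver values for Sdha, Sdhc and Sdhd, without overlap.

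Complex III passes electrons to cytochrome c and had the highest median of the complexes, at 98.4. Uqcrc2, a core subunit, had a mean of 99.5 and a lowest value of 98.7. Uqcrfs1, the Rieske iron-sulphur protein, ranged over 1.56 points. Uqcr11 was the weakest, with a mean of 90.95. ATP synthase had a median of 96.0. The genes Atp5g1, Atp5g2 and Atp5g3, which encode the same mature c subunit of the rotor, had means of 96.2, 98.97 and 95.8. Atp5g1 was lowest in brown adipose, at 84.1 fed and 89.8 fasting, and highest in muscle, at 99.6 and 99.5. Atp5g3 was highest in brown adipose (98.1 and 99.2) and lowest in fed liver (88.0), so these gene copies differed in their order of tissues.

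Complex IV, cytochrome c oxidase, had the lowest median, 91.7, and the largest median range of a gene over the libraries, 16.3 points. Both values count its tissue forms, down to Cox8c with a mean of 1.63. They do not describe the broadly expressed subunits alone, for which no median was taken. Cox7c had a mean of 99.5, with no library under 98.5. Cox7a2l, which takes part in joining complexes III and IV, lay between 97.65 and 99.8. Cox4i1, the common form of subunit 4, lay between 96.65 and 99.1. Cox7b was the weakest of the broadly expressed subunits, with a mean of 71.1 and values from 29.4 in fed spleen to 87.7 in fed heart. Cox7b is 1 of 3 X-linked genes here with Ndufa1 (mean 88.05) and Ndufb11 (92.1). All X-linked genes with a peak throughout had a median of 92.4 against 95.7 on autosomes in these male mice. The part of X linkage in the Cox7b values was not tested.

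The question of tissue-specific forms was addressed by setting muscle, heart and brown adipose against the other 5 tissues. In bulk tissue, a lower signal in every cell and a smaller share of cells with the open promoter cannot be told apart. Within 3000 bp, the difference between the means of the 3 and of the 5 tissues was 2.49 percentile points for Cox6a2 (exact permutation p = 0.786), 4.64 for Cox7a1 (exact permutation p = 0.107) and 9.72 for Cox8b (exact permutation p = 0.143). The smallest two-sided p that 56 choices of tissues allow is 0.0357. The 6 libraries of muscle, heart and brown adipose lay all above the other 10 for 0 of the 94 genes (0.177% of all genes tested), and all below for 0 (0.456%). Only Cox7b reached the smallest p, with a mean of 80.3 in the 3 tissues and 65.5 in the others (exact permutation p = 0.0357, Benjamini-Hochberg 0.908 over all genes tested, and 3.94% of all genes were under 0.05). Its difference did not hold after that correction.

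The window decided what was measured for the muscle and heart forms. Cox6a2 (chr7:128205435-128206387, minus strand) had its best peak 1965 to 2002 bp upstream of its start in 12 libraries, inside an intron of Itgad, which runs on the other strand. In muscle and heart the best peak lay 38 to 80 bp downstream of the start. Within 1000 bp, Cox6a2 stood at 94.6 in fed and 97.1 in fasting muscle, and at 88.7 in fed and 89.1 in fasting heart. It was listed at 37.25 in fasting lung and 5.71 in fasting kidney, and at 0 in the other 10 libraries, including both of brown adipose. Thus muscle and heart lay above all other libraries at this start, and brown adipose had no listed peak there. The 3 tissues against the other 5 gave 61.6 against 4.30 (exact permutation p = 0.214).

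At the muscle peak of Cox6a2, the deposited fold enrichment was 10.02 in fed and 13.3 in fasting muscle, from 237 and 419 tags at the summit. In heart it was 4.46 and 4.08, from 54 and 59 tags. These folds are within each library and are not scaled between libraries. Cox6a1, its broadly expressed partner, lay between 87.7 and 97.2 within 3000 bp, with no library of heart or muscle apart from the rest. In 5 libraries that best peak lay 1181 to 1230 bp downstream of the start. Within 1000 bp Cox6a1 ran from 69.9 in fed liver to 94.4 in fed white adipose, with 83.5 in fasting heart.

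**Figure D3:**
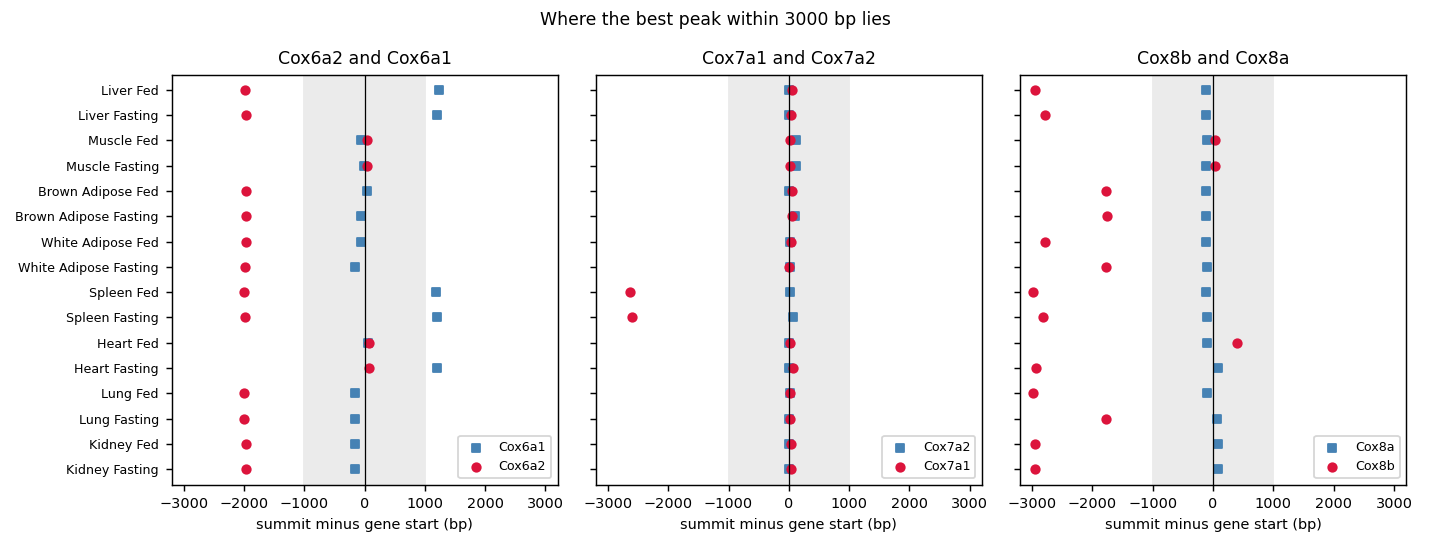
Distance of the best peak's summit from the gene start (x axis, bp, negative upstream) in each of the 16 libraries (rows) for the muscle and heart forms (red circles) and their partners (blue squares), with the window of 1000 bp shaded. The Cox6a2 summits lie at 38 to 80 bp in muscle and heart and at 1965 to 2002 bp upstream elsewhere.

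Cox8b (chr7:140898945-140900446, minus strand) showed the same dependence. Its best peak within 3000 bp lay within 1000 bp of the start in 3 libraries. The summit was 30 and 32 bp downstream in fed and fasting muscle, and 404 bp downstream in fed heart. In 4 libraries, both of brown adipose, fasting white adipose and fasting lung, it lay 1766 to 1770 bp upstream. In the other libraries it lay further upstream, up to 2991 bp from the start. Within 1000 bp, Cox8b stood at 89.5 in both muscle libraries, at 71.1 in fed and 77.8 in fasting brown adipose, and at 62.6 in fed and 75.3 in fasting heart. The other 10 libraries lay lower, at 50.2 in fasting white adipose, 30.65 and 33.2 for the spleen pair, and 0 in fed white adipose and in both libraries of liver, lung and kidney. The groups did not overlap, with means of 77.6 and 11.4 (exact permutation p = 0.0357, the smallest possible, Benjamini-Hochberg 1 over all genes tested). At this window 1 of 93 genes was above in all 6 libraries, against 0.197% of all genes. Cox7b and Cox8b, 2 of 93, had an exact permutation p under 0.05, against 3.42% of all genes.

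Cox7a1 had a peak within 1000 bp in all 16 libraries, and its levels overlapped between tissues. Fed and fasting values were 88.1 and 90.6 for heart, 94.3 and 96.3 for brown adipose, and 96.9 and 95.2 for muscle. Kidney had 86.4 and 83.25, lung 90.95 and 92.2, white adipose 91.6 and 91.9, liver 90.4 and 86.6, and spleen 81.5 and 85.9. Muscle and brown adipose lay above all other libraries, whereas heart lay among them. Its partner Cox7a2 lay higher in every library, and the difference Cox7a1 minus Cox7a2 within 1000 bp ran from -17.25 points in fed spleen to -2.44 in fed muscle. A peak within 1000 bp of the start was therefore listed in muscle and heart for Cox6a2, Cox7a1 and Cox8b. In brown adipose such a peak was listed for Cox7a1 and Cox8b. The Cox8b summit in fed heart lay 404 bp into the gene, at a fold of 2.77 from 30 tags. Where the Cox8b summits within 1000 bp lay in fasting heart and brown adipose was not examined.

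The muscle marker list is given beside these values, since muscle cells may lie in other tissues. Its mean percentile within 1000 bp was 93.5 and 92.4 in muscle, 69.4 and 66.3 in heart, 63.1 and 69.4 in white adipose, and 57.3 and 44.4 in fed and fasting brown adipose, with 45.8 to 60.4 in the other libraries. White adipose had a higher mean than brown adipose, with Cox8b at 0 and 50.2 there and Cox6a2 at 0. The list is a coarse gauge of muscle cells. Mylpf was at 95.3 or above in all 16 libraries, and Ckm stood at 96.5 in fed kidney against 95.3 in fed muscle. Acta1 stood at 93.2 and 94.2 in fed and fasting white adipose, and at 75.6 and 48.4 in brown adipose. Myh4 was at 0 in both depots. The part of muscle cells in the brown adipose values was not tested.

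**Figure D4:**
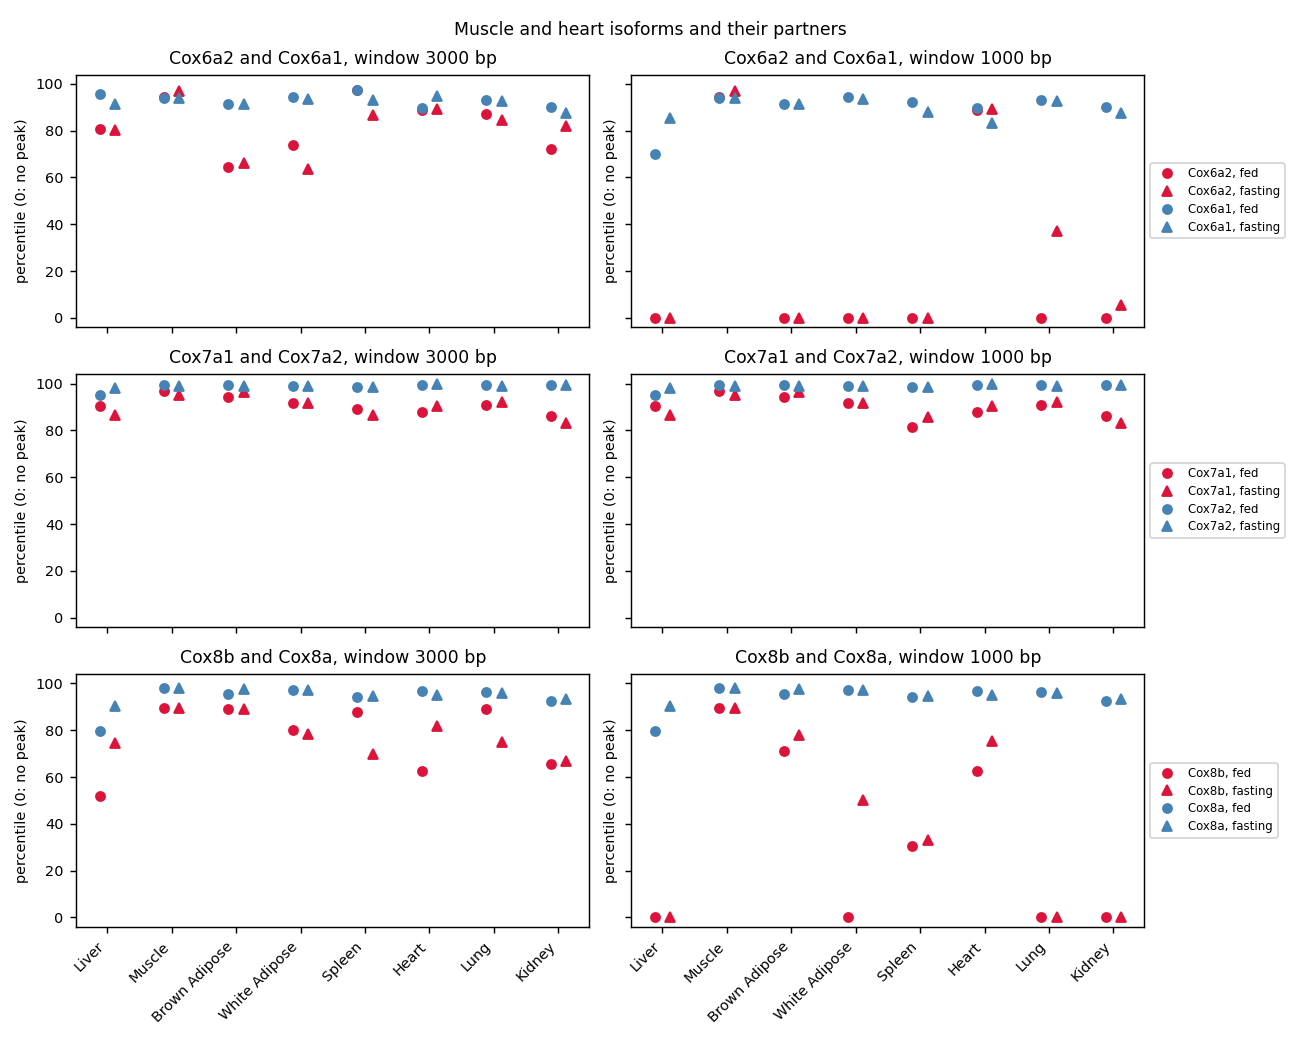
Percentile of the best peak (y axis, 0 for no peak) by tissue (x axis) for the muscle and heart forms (red) and their partners (blue), fed (circles) and fasting (triangles), within 3000 bp (left) and 1000 bp (right). In the narrower window Cox6a2 is above 88 in muscle and heart and at most 37.25 elsewhere, and Cox8b is at 62.6 or above in muscle, brown adipose and heart and at most 50.2 elsewhere.

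The forms of testis and lung were weak. Cox6b2 had a peak in all libraries, at 38.4 to 88.3, below Cox6b1 in each of the 16. Cox7b2 had a peak in 10 libraries, 2412 to 2494 bp downstream of its start, and none within 1000 bp. Cox4i2 had a peak within 1000 bp in 11 libraries, at 61.1 and 60.8 in lung, 64.8 and 63.5 in heart, 22.8 and 42.1 in muscle, and 69.8 in fasting spleen with none in fed spleen. It was also listed in fed liver (38.4), fasting white adipose (44.4), fed brown adipose (1.49) and fasting kidney (2.33). Lung and heart were thus even between states at this start, while spleen was not.

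Across tissues, liver was most often the lowest. The mean percentile was lowest in liver for 40 of 90 genes (44.4%, against 33.8% of all genes with a peak throughout), and in lung for 0. Both liver libraries lay below the other 14 for 22 of the 90 genes, 24.4% against 14.8% of all genes. These include Sdha, Sdhc, Sdhd, Cox8a, Cox6b1, Cox7a2, Atp5a1, Atp5h and Ndufs8, which, as members of a count, were named after their values were seen. Liver also had the shallowest libraries. When genes were ranked only among genes of the same library, the count was 10 (11.1%, against 8.4% of all genes), among them Sdha, Cox8a, Cox7a2, Atp5h and Ndufs8. The part of depth in the liver values was not tested beyond this.

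Muscle was most often the highest, for 23 of the 90 genes (25.6%, against 17.4%). Both muscle libraries lay above the other 14 for 9 genes (10%, against 7.1%), namely Atp5e, Atp5g1, Atp5h, Cox8a, Cox8b, Ndufa13, Ndufa2, Ndufb3 and Ndufv3. By rank among genes the count was 6 (6.67%, against 6.13%), near the background. For Cox8a, the common form of subunit 8, muscle stood at 97.9 and 98.2, and liver at 79.8 and 90.2. By library, the median over the 94 genes ran from 94.8 in fed liver to 97.9 in fed muscle.

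Fasting was then compared with feeding over the 8 tissues. Fasting lay above fed in all 8 tissues for 0 of the 94 genes (0.309% of all genes tested) and below in all for 0 (0.609%). With the exact sign-flip permutation test, 3 genes (3.19%) had an unadjusted p under 0.05, against 5.25% of all 19719 genes, and 0 had a Benjamini-Hochberg value under 0.05 (the lowest over all genes was 0.821). The 3 were Atp5a1, the alpha subunit of the ATP synthase head, Atp5s and the second Atp5o model. Atp5a1 was higher in fasting in 7 of 8 tissues, with a mean shift of 1.67 points (p = 0.0234, exact sign flips), of which liver gave 7.07 points, from 86.99 to 94.1. Atp5s was lower in 7 of 8 tissues, by 0.448 points on average, and the second Atp5o model had a mean shift of -12.7 points, lower in 6 of 8 tissues (p = 0.0469, exact sign flips). None of these held after correction.

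Single tissues have 1 library per state, so shifts are given as values with no test. A shift of 10 points or more was rarer than over all genes in each of the 8 tissues and in both directions, on a scale that leaves strong promoters little room near 100. In liver, 6 genes were higher in fasting by 10 points or more (6.38%, against 9.43%) and 3 lower (against 13.7%). In muscle 1 was higher (3.66%) and 1 lower (5.84%). In the brown adipose pair 0 were higher (6.19%) and 1 was lower (6.82%), and in white adipose 0 were higher (7.3%) and 1 was lower (8.86%).

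In spleen 2 were higher (7.77%) and 4 lower (9.46%), and in heart 1 was higher (7.75%) and 3 were lower (9.26%). In lung 0 were higher (3.93%) and 1 was lower (6.15%). In kidney 3 were higher (4.13%) and 0 lower (3.79%). The genes that shifted were mainly complex IV forms with weak peaks. The values in brackets are the shares of all genes tested.

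The 6 genes higher in fasting liver were Cox6b2 (38.4 to 71.7), Cox8b (52.0 to 74.7), Ndufb10 (79.0 to 90.7), Cox6b1 (76.9 to 88.0), Atp5o (83.9 to 94.5) and Cox8a (79.8 to 90.2). Cox6b2 had its summit 80 bp upstream of the start in fed and 445 bp downstream in fasting liver. The Cox8b peaks lay 2947 bp upstream in fed and 2789 bp upstream in fasting liver, and none was listed within 1000 bp. Within 1000 bp Ndufb10 went from 79.0 to 88.8, short of the threshold. Cox6b2, Cox6b1, Atp5o and Cox8a had the same values in both windows. The largest fall in liver was of Cox4i2, from 38.4 to no listed peak. In liver 30 of the 38 complex I genes were higher in fasting, with a median shift of 0.576 points. The median level of complex I was 95.16 in fed and 95.1 in fasting liver. Genes higher and lower there numbered 4 and 4 for assembly factors, 2 and 2 for complex II and 5 and 3 for complex III. They numbered 10 and 7 for complex IV and 12 and 6 for ATP synthase. Of all 94 genes, 63 were higher and 30 lower in liver (67.0% higher, against 51.6% of all genes with a peak throughout). Background tags in liver were 2.80 and 2.82, but the lists differed, with 98328 fed and 132076 fasting rows at q under 1e-06 and 239804 and 217821 regions, and the part of this in the shifts was not tested.

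Brown adipose had 56 genes higher and 37 lower (59.6% higher, against 43.6%), with a median shift of 0.153 points. In lung the balance was the other way, with 32 genes higher and 60 lower (34.0% higher, against 46.15%) and a median shift of -0.21 points. Without replicates, shifts of this size cannot be set against a spread between libraries of 1 state.

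**Figure D5:**
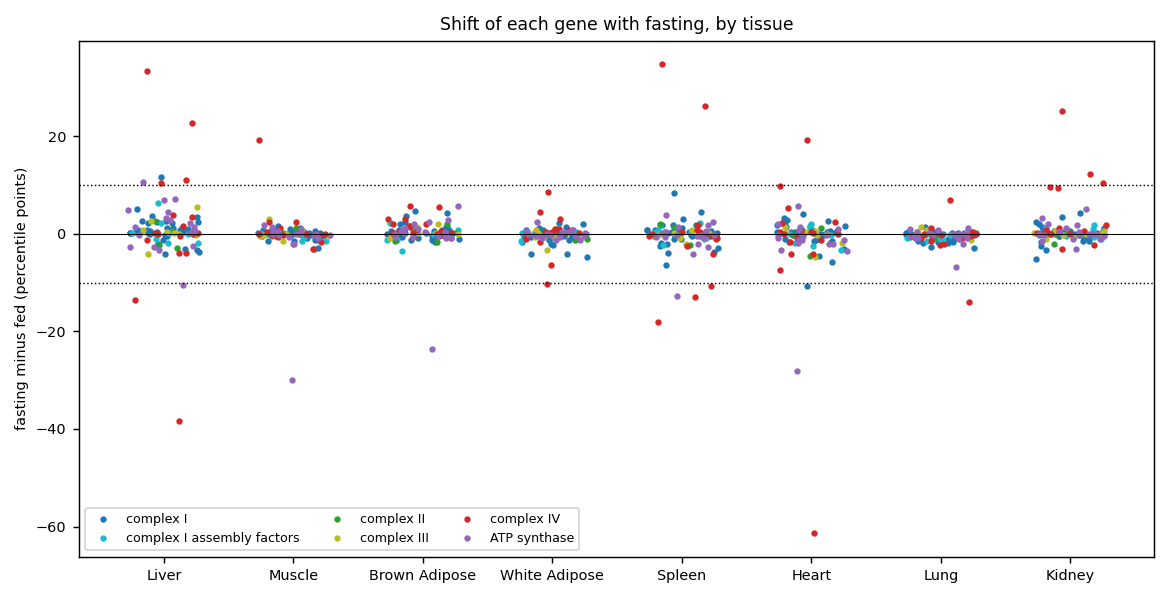
Fasting minus fed difference (y axis, percentile points) of each of the 94 genes (points, coloured by complex, spread sideways for visibility) in each tissue (x axis), with dotted lines at 10 points either way. Most points lie near 0, and those past the lines are mainly complex IV genes and the second Atp5o model.

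The largest shifts elsewhere often belonged to peaks away from the start. Cox7b rose in fasting spleen from 29.4 to 64.1, where the fed peak lay 2344 bp upstream and the fasting peak 196 bp downstream of the start, and within 1000 bp the values were 25.5 and 64.1. Cox7b2 fell in heart from 67.5 to 6.15, Cox8b fell in lung from 89.1 to 75.1 and in spleen from 87.8 to 69.8, and Cox4i2 was higher in fasting muscle (22.8 to 42.1) and kidney (0 to 25.2). The Cox7b2 peaks in heart lay 2432 bp downstream of the start in fed and 2450 bp in fasting. They had 21 and 15 tags at the summit, over a background of 4.92 and 5.84, and none was listed within 1000 bp. For Cox8b in lung no peak was listed within 1000 bp in either state. In spleen the Cox8b peaks lay 2985 and 2812 bp upstream of the start, and within 1000 bp the values were 30.65 fed and 33.2 fasting. In white adipose the largest rise was of Cox6b2 (71.2 to 79.7) and the largest fall of Cox6a2 (74.0 to 63.7), the latter at its distant peak. In brown adipose the largest rise was 5.76 points, of Cox7b2, and the largest fall was of the second Atp5o model, from 64.2 to 40.6. The same model had the largest fall in muscle, from 43.4 to 13.4. In kidney the largest fall was of Ndufb3, from 90.8 to 85.6.

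When genes were ranked among genes of the same library, the compressed upper end of the scale opened. In brown adipose, 15 genes were then higher in fasting by 10 points or more (16%, against 8.76% of all genes) and 1 lower (against 6.35%). The 15 include Atp5a1, Atp5b, Cox8a, Cox7a2l, Uqcrh and Uqcrq. The fasting library of brown adipose had 6.76 background tags against 12.77 in the fed one, and the part of this depth difference in the count was not tested. In liver, 17 were higher (18.1%, against 14.1%) and 7 lower (7.45%, against 15.5%). Only brown adipose and liver were counted singly on this scale. Summed over all tissues, these 2 included, 64 shifts of 10 points or more were upward and 35 downward.

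The other genes of the pathway were 45 regulators, carriers and assembly factors. A peak was listed in all 16 libraries for 44 of them, with a median of mean percentiles of 97.0. Of these 45, 0 moved the same way in all 8 tissues, 0 lay apart in muscle, heart and brown adipose, and 2 had an exact sign-flip permutation p under 0.05. The promoters of the regulators were open throughout, with means of 99.3 for Nrf1, 98.6 for Gabpa, 99.15 for Esrra, 97.7 for Yy1 and 98.6 for Tfam, which packages mitochondrial DNA. Gabpa had the same value as Atp5j in all 16 libraries, so its values do not describe it apart from that gene. The coactivator genes Ppargc1a and Ppargc1b had means of 87.9 and 95.8. Cycs, which encodes cytochrome c, had a mean of 98.99.

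Ppargc1a stood at 91.3 in fed and 76.4 in fasting white adipose, with 87.9 and 86.3 in fed and fasting liver. Ucp1, the uncoupling protein of brown fat, was the gene of this list without a peak throughout. Within 3000 bp it stood at 93.5 in fed and 88.1 in fasting brown adipose, 58.8 and 26.1 in spleen, 8.89 in fed white adipose and 0 in the others. Within 1000 bp Ucp1 stood at 93.5 in fed and 78.85 in fasting brown adipose, and at 0 in fed spleen. In brown adipose, then, Ucp1, Cox7a1 and Cox8b had listed peaks within 1000 bp of a start in both states, and Cox6a2 had none.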

How the data were processed

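The data were 16 ATAC-seq peak lists, with 1 pooled library per tissue and state. Following the submitters' processing notes and the study's own methods, the authors aligned reads to GRCm38 with Bowtie2, removed mitochondrial and duplicate reads and called peaks with MACS2, whose versions are not given in the sources used here. Fold enrichment, as deposited, is a within-library ratio of the authors. The deposited significance values are -log10 p and -log10 q (p-value and q-value) from the authors' MACS2 test, and neither is scaled between libraries.

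Each list was ranked by p to give percentiles, and each gene took its highest row with a summit within 3000 bp of any GENCODE vM21 start (the study used a later release). The genes, lists and comparisons were chosen with earlier results of these data known. The exact permutation tests enumerate choices of 3 of 8 tissues (means of both states) and sign flips of fasting minus fed over 8 tissues, two-sided, with Benjamini-Hochberg adjustment over all protein-coding genes with a peak. Tissues of a state share their mice, so p-values speak of these pools only. Background tags were solved from the deposited fold and p, and no interval is given since read counts were not analysed here. Named are isoform families, complex II, genes lacking a peak, extremes of each complex and tissue, genes whose groups do not overlap, and chosen regulators. Others were named after their values were seen.

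Alternatives were the q threshold (0.01, 1e-06), a 1000 bp window, starts of protein-coding transcripts, summits nearest to the gene's own start, regions in place of rows, ranking by fold, rank among genes, other shift thresholds and leaving out each tissue. The liver and muscle counts and shifts by rank among genes were added after values were seen. Promoter sequences and motifs came from RefSeq (GRCm38.p6). The steps were tested on simulated data. Software was pysam 0.24.0, matplotlib 3.10.9, pandas 2.3.3, scipy 1.17.1 and numpy 2.4.6 under Python 3.11.15.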

Additional observations from a re-analysis of the deposited data

How the results depend on the processing

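Counted over results and alternatives, 172 kept their direction and side of the threshold or, for counts, stayed within 1.5 times, while 25 moved, 5 reversed and 1 passed the threshold; values could still move within the first class. For Cox8b the difference was 4.50 points at q under 1e-06 (exact permutation p = 0.75) and 20.5 with regions in place of rows (exact permutation p = 0.107), and for Cox6a2 it was 57.3 in the 1000 bp window. The difference of Cox8b between muscle, heart and brown adipose and the other tissues was 66.2 points in the 1000 bp window (exact permutation p = 0.0357). In that window 1 gene was higher in these 3 tissues, and summed over tissues 6 shifts of 10 points were downward (14 within 3000 bp) and 15 upward (13). Ranked by fold enrichment, Cox6a2 (-2.91) and Cox7a1 (-1.99) reversed, the median of members over all libraries was 95.7 in place of 97.0, and 35 shifts were upward and 11 downward. By rank among genes the median was 73.2, a scale of its own, 1 gene (Cox7b) was higher in the 3 tissues, and 64 shifts were upward and 35 downward. Genes with a sign-flip p under 0.05 numbered 1 with own summits only and 5 with regions in place of rows, where 1 gene (Atp5a1) was higher in all 8 tissues. At a threshold of 5 points 30 shifts were upward and 20 downward, and at 20 points 5 were upward and 5 downward. The liver count of 22 became 10 by rank among genes. The cause was not tested.

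Leaving out each tissue in turn, the difference ranged from -3.72 to 11.4 for Cox6a2 (-3.72 without muscle, -0.53 without white adipose and -0.27 without heart), from 3.39 to 6.73 for Cox7a1 and from 6.79 to 15.5 for Cox8b. Genes higher in the 3 tissues numbered 0 to 2 and lower 0 to 1, genes with a sign-flip p under 0.05 numbered 4 to 6, and genes moving the same way in all tissues numbered 0 to 1 in either direction. No paired analysis beyond the pairing of states within a tissue was possible because each state has 1 library per tissue. Depth ran from 2.80 to 12.77 background tags while the lists had nearly equal length, so the weakest listed peak differed in significance between libraries. The part of this in values of 0 was not tested.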
